A study of Mus musculus with 2 samples.

Results

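Collagens are secreted or membrane-bound proteins of the extracellular matrix, and each is assembled from chains that wind into a triple helix. Fibril-forming collagens give tissue its tensile strength, type IV chains form the network of basement membranes, fibril-associated chains sit on the surface of fibrils, and transmembrane chains are carried on cells and can be shed. In the brain, vessels, meninges and choroid plexus are known for basement membrane and fibrillar chains, while neurons are known for a small set of other chains. The collagen chain genes described here have a symbol in the form of a collagen alpha chain and at least 50 unique molecular identifiers (UMIs, 1 for each captured RNA molecule) over both libraries; not every chain is analysed here. This gave 43 of 32285 genes, with 71 (Col6a6) to 32446 (Col25a1) UMIs over all barcodes.

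The RNA came from nuclei of flash-frozen hippocampus of mice aged 8 months. The library labelled MR1 knockout came from 5XFAD x MR1 KO mice, and its reference library from 5XFAD mice. Both carry 5XFAD, a transgenic background driven by Thy1 promoter sequences in which amyloid plaques form. MR1 is the molecule that shows vitamin B related ligands to MAIT cells, a T cell class, and the title of the study asks how MR1 and these cells bear on swollen neurites. Each group was 1 library that pooled 1 female and 1 male mouse, from about 20 mg of tissue, so there was no test between the groups. Every ratio has the library labelled MR1 knockout on top, and all intervals are exact 95% intervals for counting error only.

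Mr1 RNA went against the label. Mr1, the targeted gene, had 67 UMIs (1.19 CPM, the usual scaling by the summed UMIs of the same nuclei) in the kept nuclei of the library labelled MR1 knockout and 33 UMIs (0.587 CPM) in those of the 5XFAD library, a ratio of 2.04 (1.32 to 3.19). A 3' tag can lie outside a deleted part, so this count checks nothing about the protein. The libraries held 26212 and 25238 barcodes with 85678909 and 106861726 UMIs, of which 17123 and 12021 nuclei were kept, with medians of 2519 UMIs in the library labelled MR1 knockout and 3705 UMIs in the 5XFAD library. The share of barcodes over the mitochondrial limit was 8.92% in the library labelled MR1 knockout and 35.8% in the 5XFAD library, and 182 barcode sequences were shared by both. The cell makeup of the libraries differed. Of the clusters, 7 had over 90% of their nuclei from 1 library, with 2509 nuclei of the library labelled MR1 knockout and 2361 nuclei of the 5XFAD library. Among them were cluster 3, led by Smoc1 and Otof (1816 and 25 nuclei), striatal medium spiny neurons (4 and 1135), cluster 15, led by Ano1 and Prdm16 (6 and 605), and choroid plexus epithelial cells (94 and 1). Class names stand for clusters that resemble that type by its markers, and no collagen gene was used to make the clusters.

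The pairs of type IV genes lie head to head in the genome, and the windows around their starts are shown because the members of each pair are compared by class further on. In GENCODE M21 (GRCm38) the transcripts of Col4a1, on the minus strand, and Col4a2, on the plus strand, start at 11312826 and 11312805 on chromosome 8, so their ends overlap by 22 bases. Col4a4 and Col4a3 start 71 bases apart on chromosome 1, and Col4a6 and Col4a5 start 1308 bases apart on chromosome X. Of the 43 genes, 34 had a RefSeq window (GRCm38.p6) from 250 bases before to 50 bases after the start. The windows of Col4a1 (chr8:11312777-11313076, minus strand), Col4a2 (chr8:11312555-11312854, plus strand) and Col4a4 (chr1:82586800-82587099, minus strand, which also spans the start of Col4a3) follow, with capitals for CCAAT and GGGCGG on either strand.
Col4a1: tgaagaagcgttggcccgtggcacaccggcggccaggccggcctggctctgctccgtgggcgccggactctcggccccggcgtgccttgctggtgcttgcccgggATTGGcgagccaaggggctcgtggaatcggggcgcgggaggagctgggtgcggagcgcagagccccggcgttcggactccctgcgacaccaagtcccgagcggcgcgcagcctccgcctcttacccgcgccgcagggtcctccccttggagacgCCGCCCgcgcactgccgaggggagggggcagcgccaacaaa
Col4a2: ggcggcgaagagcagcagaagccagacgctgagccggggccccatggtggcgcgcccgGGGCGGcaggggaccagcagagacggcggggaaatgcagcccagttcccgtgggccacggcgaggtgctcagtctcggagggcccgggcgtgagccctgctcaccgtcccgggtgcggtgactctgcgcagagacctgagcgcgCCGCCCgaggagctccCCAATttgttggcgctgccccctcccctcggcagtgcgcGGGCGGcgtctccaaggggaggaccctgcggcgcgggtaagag
Col4a4: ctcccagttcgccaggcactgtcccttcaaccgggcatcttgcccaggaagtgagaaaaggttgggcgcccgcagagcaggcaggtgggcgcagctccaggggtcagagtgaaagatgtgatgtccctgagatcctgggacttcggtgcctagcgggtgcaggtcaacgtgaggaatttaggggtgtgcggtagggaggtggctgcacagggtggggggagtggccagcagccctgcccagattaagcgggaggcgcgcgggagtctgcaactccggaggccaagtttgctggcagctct

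The Col4a1 and Col4a2 windows each held 1 CCAAT match, with 1 and 3 matches to GGGCGG, and the Col4a4 window held neither motif. The Col4a1 and Col4a2 windows overlap, and the GGGCGG match of Col4a1 is the same site as the last in the Col4a2 window. Neither of the printed motifs overlapped the other, and TATAAA was searched as well and was in none of these 3 windows. Among the 34 members with a window, TATAAA was in 5, CCAAT in 13 and GGGCGG in 22, against 13.6%, 37.4% and 35.7% of all 32851 windows of the same length. The median GC content was 60% over member windows and 52.7% over all windows. A match describes the letters of the window and is not a shown binding site.

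Most of the collagen UMIs in the kept nuclei came from a few genes. In kept nuclei the 43 genes together had 31276 UMIs (558 CPM) in the library labelled MR1 knockout and 26150 UMIs (465 CPM) in the 5XFAD library. The 5 genes with the most UMIs, Col25a1, Col19a1, Col4a2, Col4a1 and Col23a1, made up 73.0% of the collagen UMIs in the library labelled MR1 knockout and 74.4% in the 5XFAD library. Long genes can give more UMIs where introns are counted, so these shares count UMIs only and no RNA level is compared between genes. Vascular leptomeningeal cells, the fibroblast-like cells of the meninges and large vessels, were the class with the highest CPM for 13 of the 43 genes in the library labelled MR1 knockout and for 15 in the 5XFAD library. Choroid plexus epithelial cells were the highest class for 7 genes in the library labelled MR1 knockout. Both classes were small, so some of these first places rested on few UMIs. In the library labelled MR1 knockout, Col6a4 led in leptomeningeal cells at 6.43 CPM and Col10a1 in choroid plexus at 11.5 CPM. In the 5XFAD library Col22a1 led in leptomeningeal cells at 8.22 CPM. The share of all genes highest in these classes was not counted, so the counts are not read as particular to collagen genes.

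**Figure D1:**
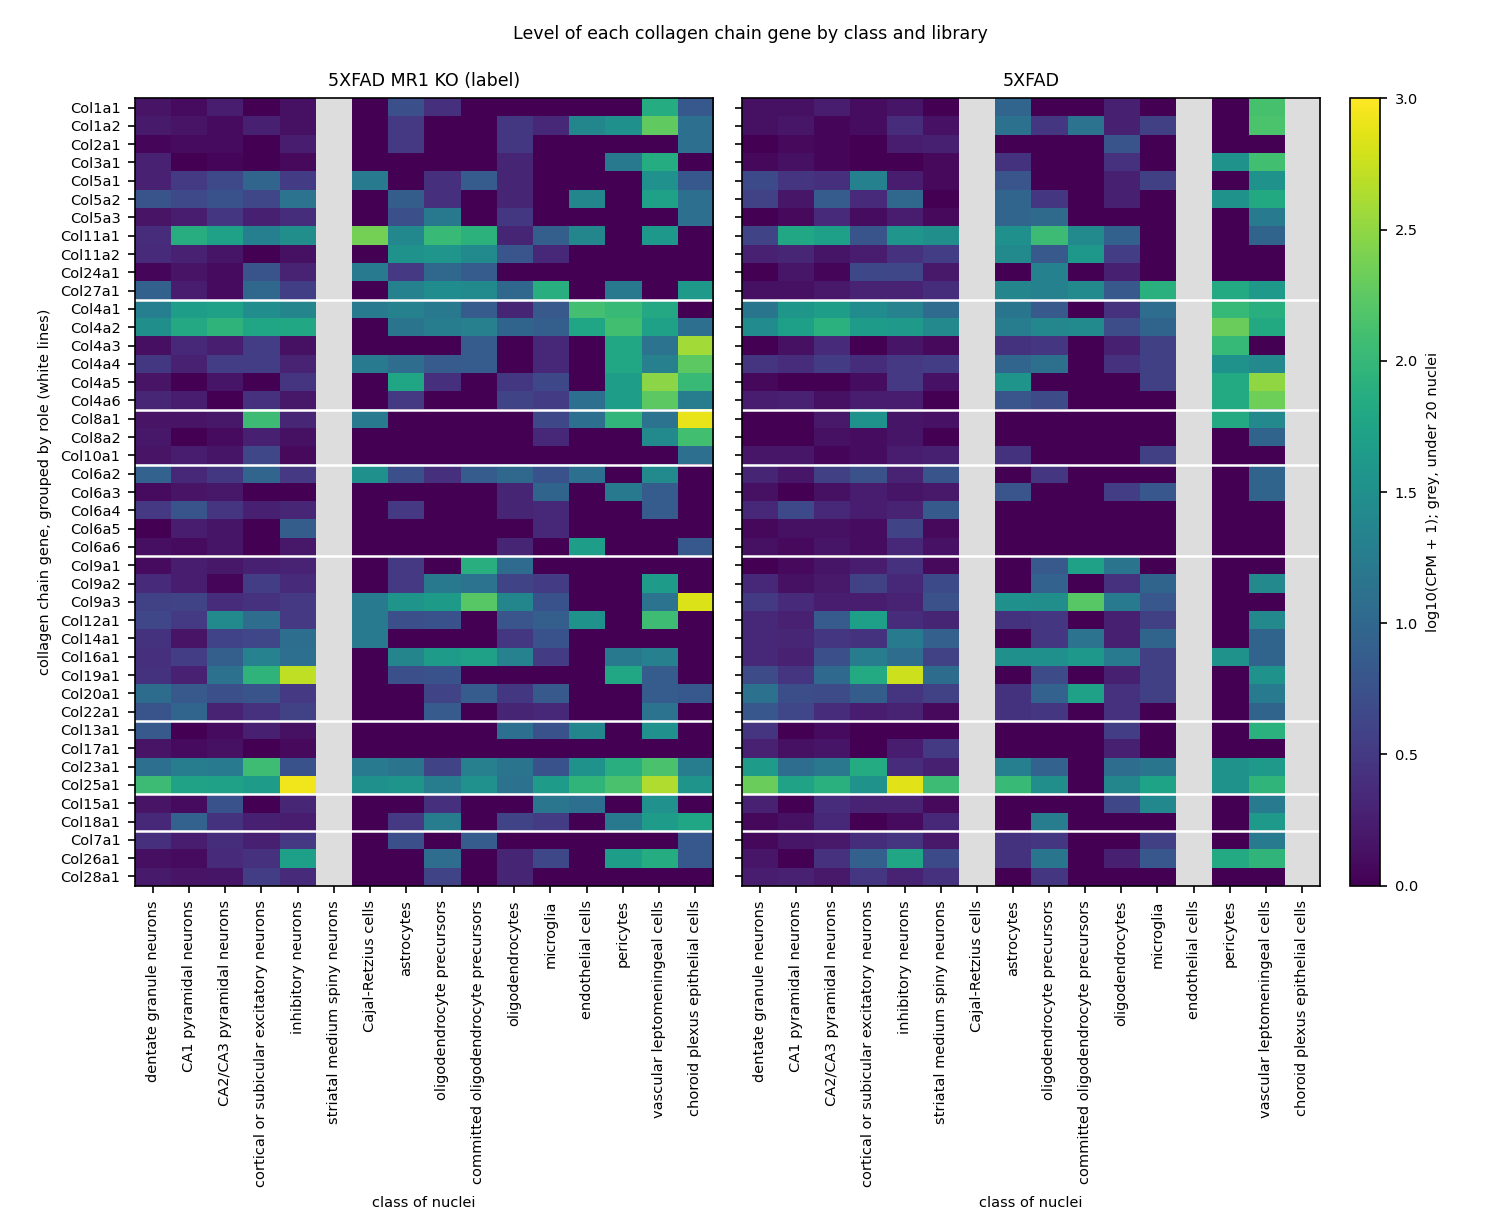
Heatmap of log10(CPM + 1) of the 43 collagen chain genes (rows, grouped by role) in the 16 named classes (columns), with the library labelled MR1 knockout on the left and the 5XFAD library on the right. Grey columns had under 20 nuclei; the brightest cells are Col25a1 and Col19a1 in inhibitory neurons of both libraries and Col8a1 and Col9a3 in choroid plexus epithelial cells.

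Among the fibril-forming chains, those of types I and III were highest in vascular leptomeningeal cells, which held 18.0% to 50.9% of their UMIs in the library labelled MR1 knockout and 26.6% to 53.6% in the 5XFAD library. Col1a2, a chain of type I collagen, had 187 CPM (125 to 268, 29 UMIs) there in the library labelled MR1 knockout and 140 CPM (81.4 to 224, 17 UMIs) in the 5XFAD library. Col1a1, the other type I chain, had 70.7 CPM (35.3 to 127) in the library labelled MR1 knockout and 132 CPM (75.2 to 214) in the 5XFAD library. Col3a1, the chain of type III collagen, had 70.7 CPM (35.3 to 127) in the library labelled MR1 knockout and 123 CPM (69.0 to 203) in the 5XFAD library. For all 3 genes the intervals of the libraries overlapped, and this depth could not show a difference. The levels rested on 95 nuclei of the library labelled MR1 knockout and 35 nuclei of the 5XFAD library. Choroid plexus markers were also present there, with 5 of 8 detected in each library and sums of 2437 CPM in the library labelled MR1 knockout and 510 CPM in the 5XFAD library. They were not particular to this class, with 4333 and 1716 CPM in oligodendrocytes and 3077 and 718 CPM in microglia. The part of this RNA in the levels of these chains was not tested.

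Col5a1 was also highest in vascular leptomeningeal cells, at 32.2 CPM (5 UMIs) in the library labelled MR1 knockout and 32.9 CPM (4 UMIs) in the 5XFAD library, while several other fibril-forming chains had high levels elsewhere. Col11a1, a minor chain of cartilage-type fibrils, had 105 CPM (81.7 to 133) in oligodendrocyte precursors of the library labelled MR1 knockout and 114 CPM (86.5 to 147) in those of the 5XFAD library. It reached 234 CPM (131 to 387, 15 UMIs) in Cajal-Retzius cells of the library labelled MR1 knockout and 153 CPM (41.6 to 391, 4 UMIs) in the 18 such nuclei of the 5XFAD library. CA1 pyramidal neurons also held it, at 72.3 CPM in the library labelled MR1 knockout and 62.3 CPM in the 5XFAD library. CA2/CA3 pyramidal neurons, at 50.5 and 48.0 CPM, held the largest share of its UMIs, 32.9% and 24.5%. Cluster 20, led by Foxp2 and Pbx3, had 149 CPM in the 5XFAD library, the highest there among classes with at least 20 nuclei. Col27a1, a fibril-forming chain known from cartilage, was highest in microglia of both libraries, at 76.3 CPM (58.9 to 97.2, 65 UMIs) in microglia of the library labelled MR1 knockout and 78.8 CPM (52.8 to 113, 29 UMIs) in those of the 5XFAD library. Oligodendrocytes held it at 9.29 CPM in the library labelled MR1 knockout and 5.86 CPM in the 5XFAD library, so microglia stood above them beyond counting error in both libraries. Col5a2, a chain that joins type I fibrils, was highest in cluster 21, led by Egfr and Hapln1 (54.1 CPM), and vascular leptomeningeal cells (51.4 CPM) of the library labelled MR1 knockout, and in vascular leptomeningeal cells (65.8 CPM, 8 UMIs) of the 5XFAD library. Col2a1, Col5a3 and Col24a1 had 50 to 178 UMIs over both libraries, and no named class held them at over 20 CPM in either library.

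The type IV chains are described by head-to-head pair, and the classes of the pairs overlapped in part. Col4a1 and Col4a2, the chains of most basement membranes, were in vessel cells and in most neurons. Col4a1 had 125 CPM (62.3 to 223, 11 UMIs) in endothelial cells of the library labelled MR1 knockout and 230 CPM (84.3 to 500, 6 UMIs) in those of the 5XFAD library, from 45 and 9 nuclei. Col4a2 had 123 CPM (53.1 to 242, 8 UMIs) in pericytes of the library labelled MR1 knockout and 203 CPM (74.5 to 442, 6 UMIs) in those of the 5XFAD library. In CA2/CA3 pyramidal neurons Col4a2 had 89.5 CPM (775 UMIs) in the library labelled MR1 knockout and 81.7 CPM (694 UMIs) in the 5XFAD library, and Col4a1 had 51.7 and 47.6 CPM. Oligodendrocytes lay far below, with 8.26 CPM of Col4a2 in the library labelled MR1 knockout and 4.19 CPM in the 5XFAD library, and Col4a1 at 1.03 and 1.67 CPM. Levels in CA2/CA3 neurons thus stood above those in oligodendrocytes of the same library beyond counting error.

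Col4a3 and Col4a4, known from the basement membranes of kidney and ear, were highest in choroid plexus epithelial cells of the library labelled MR1 knockout. There Col4a3 had 380 CPM (294 to 484, 66 UMIs) and Col4a4 had 173 CPM (117 to 247, 30 UMIs) in the library labelled MR1 knockout, and 62.3% of its Col4a3 UMIs came from this class. The 5XFAD library held 1 choroid plexus nucleus, so no level could be had from it. Of the 94 nuclei in the library labelled MR1 knockout, 48 were assigned to the male and 0 to the female mouse. Pericytes came second for both genes in that library, at 61.5 CPM each. In the 5XFAD library pericytes were highest among classes with at least 20 nuclei, at 101 CPM for Col4a3 and 33.8 CPM for Col4a4. These pericyte levels rested on few UMIs. Col4a5 and Col4a6, known from smooth muscle basement membranes, were highest in vascular leptomeningeal cells. Col4a5 had 302 CPM (222 to 402) there in the library labelled MR1 knockout and 321 CPM (228 to 438) in the 5XFAD library, and Col4a6 had 174 CPM (114 to 253) and 214 CPM (140 to 313). Choroid plexus epithelial cells of the library labelled MR1 knockout held Col4a5 at 104 CPM. Astrocytes held Col4a5 at 56.9 CPM (37.2 to 83.4) in the library labelled MR1 knockout and 34.4 CPM (21.0 to 53.1) in the 5XFAD library, while Col4a6 rested on 3 UMIs in astrocytes of the 5XFAD library.

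**Figure D2:**
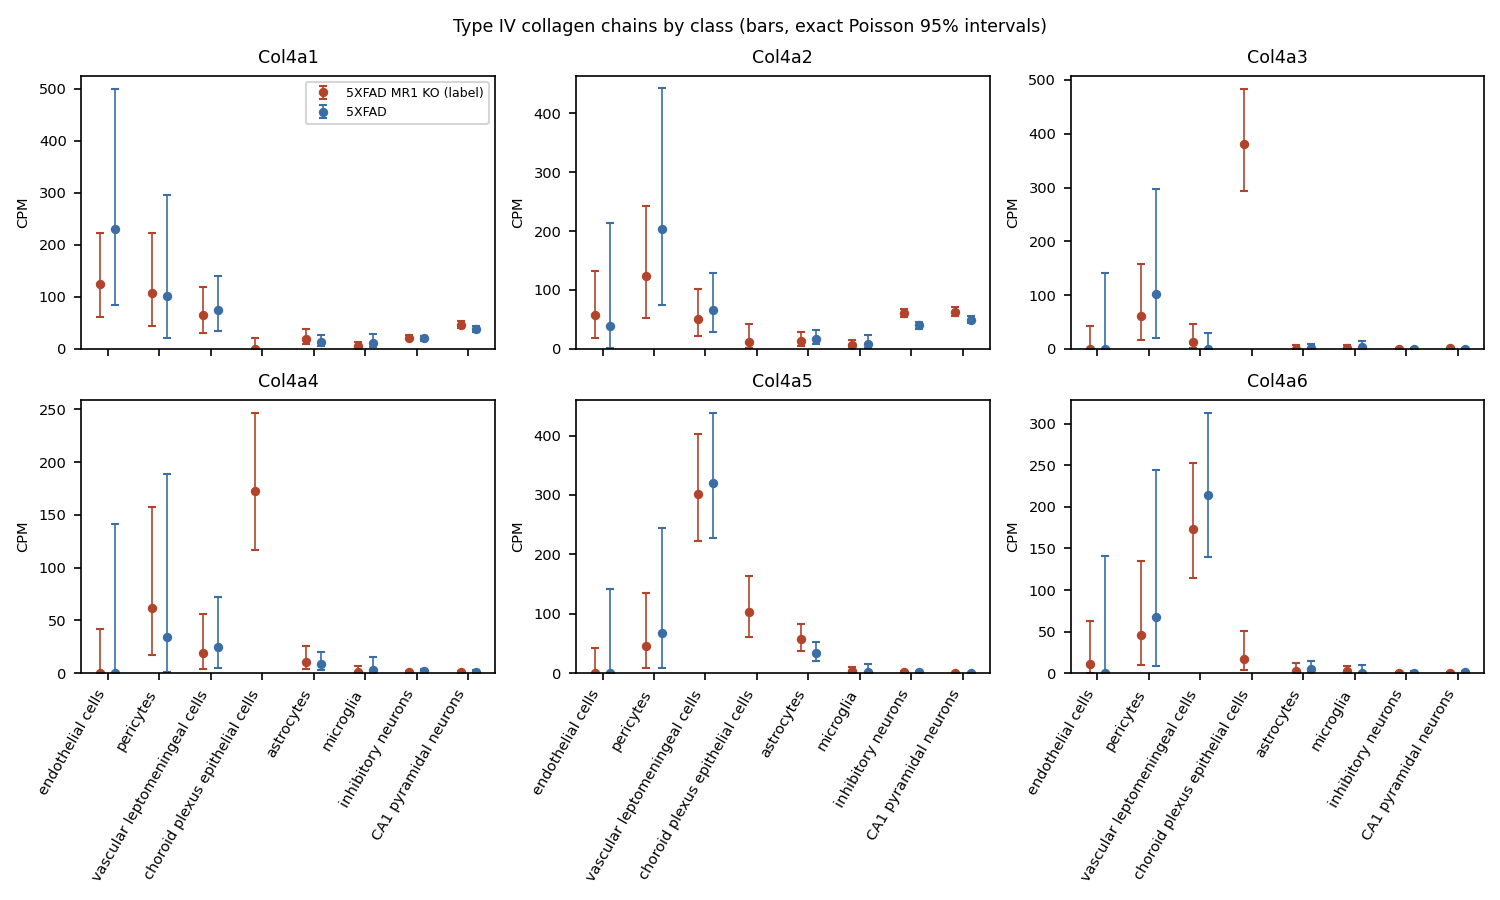
Levels of the 6 type IV chains in CPM (vertical axis, linear, from 0) in 8 classes, with the library labelled MR1 knockout in red on the left and the 5XFAD library in blue on the right; bars are exact Poisson 95% intervals. Col4a3 and Col4a4 are highest in choroid plexus epithelial cells, shown for the library labelled MR1 knockout only (380 and 173 CPM). Col4a5 and Col4a6 are highest in vascular leptomeningeal cells, and Col4a1 and Col4a2 in endothelial cells or pericytes.

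Across the classes with at least 20 nuclei, Pearson's r of log2(CPM + 1) was 0.66 for Col4a1 and Col4a2 over the 27 classes and unnamed clusters of the library labelled MR1 knockout and 0.75 over the 26 of the 5XFAD library. It was 0.73 and 0.57 for Col4a3 and Col4a4, and 0.77 and 0.89 for Col4a5 and Col4a6. Col1a1 and Col1a2, whose genes lie on different chromosomes, had 0.57 and 0.76. These values describe classes that share a library and their depth, and none is called particular to the head-to-head pairs.

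The short-chain network genes were led by the choroid plexus. Col8a1, known from vessel walls and the cornea, had 801 CPM (673 to 946, 139 UMIs) in choroid plexus epithelial cells of the library labelled MR1 knockout, which held 34.7% of its UMIs there. Its partner Col8a2 had 121 CPM (74.9 to 185, 21 UMIs) in the same nuclei. Col8a1 was also neuronal: in cortical or subicular excitatory neurons it had 112 CPM in the library labelled MR1 knockout and 32.5 CPM in the 5XFAD library. Col10a1, known from growth plate cartilage, had only 35 UMIs in the library labelled MR1 knockout and 23 UMIs in the 5XFAD library, with no class above 12 CPM.

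Type VI chains form beaded filaments, and their levels in named classes rested on few UMIs. Col6a3 had 29.7 CPM (23.9 to 36.5, 90 UMIs) in cluster 15 of the 5XFAD library, which held 74.4% of its UMIs there, and the 6 nuclei of that cluster in the library labelled MR1 knockout had 0 UMIs. Col6a5 was highest in cluster 12, the inhibitory neurons led by Kcnmb2 and Sst, at 15.6 CPM (32 UMIs) in the library labelled MR1 knockout and 7.68 CPM (10 UMIs) in the 5XFAD library. Col6a2 and Col6a4 were spread over many classes, Col6a2 being highest in Cajal-Retzius cells on 2 UMIs (31.3 CPM) in the library labelled MR1 knockout, with 362 and 97 UMIs in the library labelled MR1 knockout and 184 and 112 UMIs in the 5XFAD library. Col6a6 had 27 and 20 UMIs in kept nuclei and was the only member under the limit of 50 UMIs used for ratios; 4 of its UMIs gave 45.4 CPM (12.4 to 116) in endothelial cells of the library labelled MR1 knockout.

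Fibril-associated chains marked several separate cell classes. Col19a1, which in mice is made by hippocampal interneurons and takes part in forming inhibitory synapses, had 515 CPM (496 to 534) in inhibitory neurons of the library labelled MR1 knockout and 585 CPM (562 to 608) in those of the 5XFAD library. These nuclei held 80.2% of its UMIs in the library labelled MR1 knockout and 72.4% in the 5XFAD library. Oligodendrocytes held 0 UMIs of Col19a1 in the library labelled MR1 knockout, which allows up to 3.10 CPM, and 1 UMI in the 5XFAD library. Within the inhibitory class it was highest in cluster 11, led by Adarb2 and Vip, with 854 CPM in the library labelled MR1 knockout and 876 CPM in the 5XFAD library. Col9a3, a chain of the cartilage collagen type IX, had 692 CPM (573 to 827, 120 UMIs) in choroid plexus epithelial cells of the library labelled MR1 knockout. In committed oligodendrocyte precursors Col9a3 had 167 CPM (109 to 245) in the library labelled MR1 knockout and 166 CPM (88.3 to 284) in the 5XFAD library. Col9a1 was also highest in these precursors, at 77.2 CPM (39.9 to 135) in the library labelled MR1 knockout and 51.1 CPM (13.9 to 131) in the 5XFAD library.

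Col12a1, a chain that binds type I fibrils, was highest in the unnamed cluster 33, with 163 CPM (132 to 200) in the library labelled MR1 knockout and 87.0 CPM (55.1 to 131) in the 5XFAD library. Col16a1 was highest in committed oligodendrocyte precursors, at 51.5 CPM (8 UMIs) in the library labelled MR1 knockout and 38.3 CPM (3 UMIs) in the 5XFAD library. Col14a1 was highest in cluster 11, at 23.6 CPM in the library labelled MR1 knockout and 52.6 CPM in the 5XFAD library. Col20a1 and Col22a1 had most of their UMIs of any class in dentate granule neurons of both libraries, where Col20a1 had 10.6 CPM in the library labelled MR1 knockout and 12.5 CPM in the 5XFAD library. Col9a2 was highest in vascular leptomeningeal cells of both libraries, on 7 and 3 UMIs.

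Of the transmembrane chains, Col25a1 is the gene of the collagenous Alzheimer amyloid plaque component, a neuronal protein whose shed part is found in amyloid plaques. It had 859 CPM (834 to 883) in inhibitory neurons of the library labelled MR1 knockout and 741 CPM (715 to 767) in those of the 5XFAD library. Cluster 21, which had inhibitory markers but stayed unnamed, held it at 902 CPM in the library labelled MR1 knockout and 742 CPM in the 5XFAD library. Cluster 11 stood above the other inhibitory clusters, with 1535 CPM in the library labelled MR1 knockout and 1591 CPM in the 5XFAD library, against 605 and 583 CPM in cluster 12 and 384 and 208 CPM in cluster 14, led by Erbb4 and Btbd11. Cluster 15 had 710 CPM (680 to 740) in the 5XFAD library and held 21.0% of its Col25a1 UMIs. In oligodendrocytes Col25a1 had 12.4 CPM (6.40 to 21.6) in the library labelled MR1 knockout and 22.6 CPM (14.9 to 32.9) in the 5XFAD library. Vascular leptomeningeal cells held 444 CPM (345 to 562) in the library labelled MR1 knockout, from 69 UMIs in 15 of 95 nuclei, and 90.5 CPM (45.2 to 162) from 11 UMIs in 2 nuclei of the 5XFAD library. All 14 inhibitory neuron markers were also detected in this class, with sums of 2309 CPM in the library labelled MR1 knockout and 798 CPM in the 5XFAD library. They were not particular to it, as oligodendrocytes held all 14 too, at 2298 and 2320 CPM. The part of such neuronal RNA in the Col25a1 level was not tested.

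Among the clusters, Col23a1 was highest in cluster 30, one of cortical or subicular excitatory neurons, with 217 CPM (37 UMIs) in the library labelled MR1 knockout and 200 CPM (52 UMIs) in the 5XFAD library. Col13a1, known from the neuromuscular junction, was highest in vascular leptomeningeal cells, with 32.2 CPM (10.4 to 75.0) in the library labelled MR1 knockout and 82.2 CPM (39.4 to 151) in the 5XFAD library. Col17a1, known from the hemidesmosomes of skin, had 18 UMIs in the library labelled MR1 knockout and 39 UMIs in the 5XFAD library. The multiplexins, whose shed ends are known to act on vessels, were highest in different classes: Col18a1 in cluster 33 of the library labelled MR1 knockout (72.2 CPM) and vascular leptomeningeal cells of the 5XFAD library (41.1 CPM, 5 UMIs), and Col15a1 in vascular leptomeningeal cells of the library labelled MR1 knockout (32.2 CPM, 5 UMIs) and microglia of the 5XFAD library (24.5 CPM, 9 UMIs). Among the remaining chains, Col26a1 had 48.9 CPM (43.2 to 55.1) in inhibitory neurons of the library labelled MR1 knockout and 56.8 CPM (49.9 to 64.5) in those of the 5XFAD library. Its highest level in a class with at least 20 nuclei was in vascular leptomeningeal cells. It had 70.7 CPM there in the library labelled MR1 knockout and 90.5 CPM in the 5XFAD library, in a class of few nuclei. Col7a1, the chain of anchoring fibrils, and Col28a1 stayed under 20 CPM in every class with at least 20 nuclei.

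Set against each other over all kept nuclei, the libraries differed in a larger share of collagen genes than of all genes, mostly upward, but much of this lay in clusters held by 1 library. Of the 42 members with at least 50 UMIs, 13 were at least 1.5-fold higher in the library labelled MR1 knockout and 2 at least 1.5-fold lower. Among all 18634 genes with as many UMIs, 8.82% were that much higher and 3.18% that much lower. The median log2 ratio was 0.36 over the 42 members and 0.13 over all genes. Scaling with TMM factors moved every log2 ratio by -0.13, which left 10 members higher and 2 lower and put Col8a1, Col16a1 and Col10a1 under the limit. Leaving out the 7 clusters held by 1 library, which was decided after the data were seen, left 38 members with enough UMIs. Of these, 7 were higher (6.97% of all genes) and 2 lower (2.13% of all genes), and 6 of the 7 were among the 13 called before: Col12a1, Col13a1, Col18a1, Col27a1, Col5a3 and Col6a2. The 2 lower ones, Col24a1 (0.664) and Col5a1 (0.654), were not those called lower before.

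The 15 members called over all kept nuclei came from several roles. Col13a1 had 196 UMIs (3.49 CPM) in the library labelled MR1 knockout and 36 UMIs (0.640 CPM) in the 5XFAD library, a ratio of 5.46 (3.81 to 8.02), and 47.4% of its UMIs in the library labelled MR1 knockout lay in cluster 3. Without the 7 clusters its ratio was 3.0 (1.99 to 4.62). Col5a2 had 608 UMIs in the library labelled MR1 knockout and 233 UMIs in the 5XFAD library, a ratio of 2.62 (2.25 to 3.06), with 36.0% of its UMIs in the library labelled MR1 knockout in cluster 3. Its ratio was 1.46 (1.23 to 1.74) without the 7 clusters, and so under the limit. Col18a1 had 385 UMIs in the library labelled MR1 knockout and 126 UMIs in the 5XFAD library, a ratio of 3.06 (2.50 to 3.78), which was 4.25 (3.25 to 5.61) without these clusters. Cluster 7, led by Rmst and Slc17a6, was kept and held 34.0% of the Col18a1 UMIs of the library labelled MR1 knockout. There 122 UMIs came from the female of that library and 12 from the male 5XFAD mouse. The male of that library and the female 5XFAD mouse had 0 there. Over all kept nuclei the Col18a1 ratio was 6.64 between females and 1.31 between males. Col4a3 had a ratio of 2.47 (1.72 to 3.61), and 1.05 (0.637 to 1.72) without the 7 clusters. Col8a2, Col12a1, Col27a1, Col6a2, Col28a1, Col5a3, Col8a1, Col16a1 and Col10a1 had ratios from 2.76 (Col8a2) to 1.53 (Col16a1 and Col10a1), and the interval of Col10a1 included 1 (0.877 to 2.71). The lower members were Col6a3, at 0.348 (0.239 to 0.498), and Col17a1, at 0.463 (0.249 to 0.829). Without the 7 clusters Col6a3 turned to 1.23 (0.701 to 2.17), and Col17a1 had too few UMIs.

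Several members with many UMIs did not pass the 1.5-fold limit over all kept nuclei, and their ratios follow. Other members with many UMIs did pass it: Col16a1 had a ratio of 1.53, Col12a1 of 2.13 and Col5a2 of 2.62. Col25a1 had 11084 UMIs (198 CPM) in the library labelled MR1 knockout and 10224 UMIs (182 CPM) in the 5XFAD library, a ratio of 1.09 (1.06 to 1.12). Col19a1 had 3515 and 3410 UMIs, a ratio of 1.03 (0.986 to 1.08). With TMM factors both genes turned to just under 1, at 0.994 for Col25a1 and 0.946 for Col19a1. Col4a2 had 3879 UMIs in the library labelled MR1 knockout and 2620 UMIs in the 5XFAD library, a ratio of 1.48 (1.41 to 1.56), and Col4a1 had 2274 and 1601 UMIs, a ratio of 1.42 (1.34 to 1.52). Without the 7 clusters the ratios of this pair were 1.18 (1.11 to 1.25) and 1.12 (1.04 to 1.21). Col23a1 (2070 and 1608 UMIs) had a ratio of 1.29 (1.21 to 1.38), and 0.848 (0.780 to 0.921) without these clusters. Col11a1 (1327 and 1665 UMIs) was at 0.799 (0.743 to 0.860), and Col26a1 (494 and 591 UMIs) at 0.838 (0.742 to 0.946). Without the 7 clusters Col11a1 was at 0.931 (0.862 to 1.01), and Col26a1 turned to 1.16 (1.01 to 1.34).

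Nuclei could be assigned to the female or the male mouse of a library by Xist and Y-linked RNA, which gives levels in 4 mice that share 2 captures. Over all kept nuclei both mice of the library labelled MR1 knockout were above both 5XFAD mice in 9 of 42 members, against 35.1% of all genes, and below both in 1, against 9.18% of all genes, so these shares were not above those of all genes. The remaining 32 members overlapped between the groups. Col5a2 was among the 9, with 13.1 CPM in the female and 6.89 CPM in the male mouse of the library labelled MR1 knockout, against 5.74 CPM in the female and 2.44 CPM in the male 5XFAD mouse. Col13a1 was another, with 4.75 and 1.11 CPM in the female and male mouse of the library labelled MR1 knockout, against 0.778 and 0.364 CPM in those of the 5XFAD library. Of the 13 members called higher, Col16a1, Col12a1, Col6a2, Col27a1, Col28a1, Col5a3 and Col10a1 had male ratios under 1, from 0.546 (Col28a1) to 0.968 (Col5a3), while Col4a3 had a female ratio of 0.879. Among the 4 mice, the female of the library labelled MR1 knockout had the highest Col12a1 level, 16.3 CPM against 8.94 CPM in the male of the same library and 4.26 and 9.46 CPM in the female and male 5XFAD mouse.

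**Figure D3:**
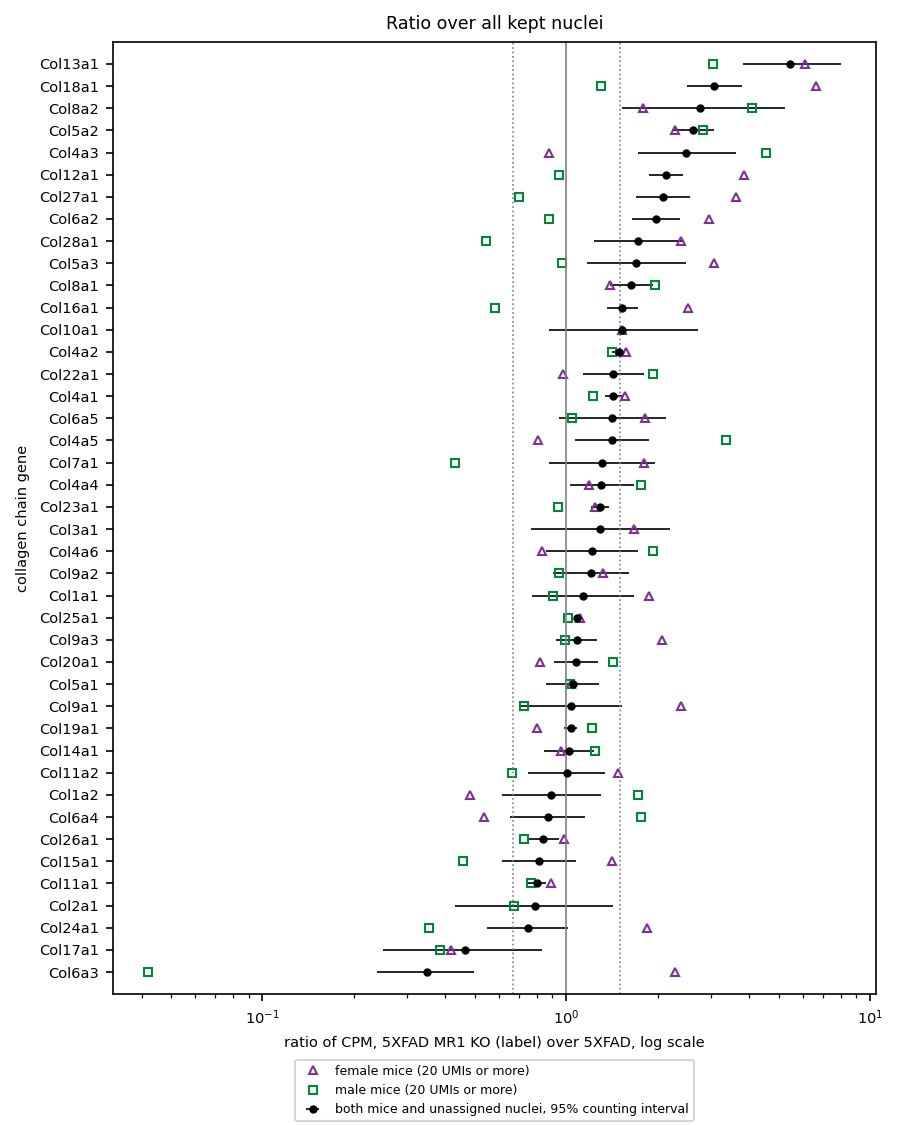
Ratio of CPM over all kept nuclei (horizontal, log scale; above 1 is higher in the library labelled MR1 knockout) for the 42 members with at least 50 UMIs; black points have 95% counting intervals, and open symbols are the female and male mice. Black points past the dotted lines at 1.5 and its inverse number 13 to the right and 2 to the left, and the female and male symbols lie far apart for Col6a3 (2.27 and 0.0420) and Col18a1 (6.64 and 1.31).

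Dentate granule neurons, the input neurons of the hippocampus, had several collagen genes that differed, of which Col25a1 and Col27a1 set apart the female mouse of the library labelled MR1 knockout. Of 10 members with at least 50 UMIs, 4 were higher (12.4% of all genes) and 2 lower (4.49% of all genes). The class was held by different clusters in the libraries: cluster 0 had 3635 nuclei of the library labelled MR1 knockout and 603 of the 5XFAD library, and cluster 6 had 467 and 863. Col25a1 had 1041 UMIs (113 CPM) in the library labelled MR1 knockout and 1167 UMIs (203 CPM) in the 5XFAD library, a ratio of 0.555 (0.510 to 0.604). By mouse, Col25a1 had 71.0 CPM in the female and 182 CPM in the male of the library labelled MR1 knockout, against 207 CPM in the female and 187 CPM in the male 5XFAD mouse. The female of the library labelled MR1 knockout was thus the low mouse, and the other 3 lay close together. Within clusters Col25a1 did not pass the limit: its ratio was 0.747 (0.636 to 0.881) in cluster 0 and 0.783 (0.687 to 0.890) in cluster 6. In cluster 0 it had 69.0 CPM in the female and 171 CPM in the male of the library labelled MR1 knockout, against 133 CPM in the female and 94.3 CPM (13 UMIs) in the male 5XFAD mouse.

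Col23a1 was lower in the same neurons, with 107 UMIs (11.6 CPM) in the library labelled MR1 knockout and 254 UMIs (44.3 CPM) in the 5XFAD library, a ratio of 0.262 (0.207 to 0.330). Its levels were 5.89 CPM in the female and 18.3 CPM in the male of the library labelled MR1 knockout, against 46.4 CPM in the female and 35.4 CPM in the male 5XFAD mouse, so the groups did not overlap. Within clusters it was 0.380 (0.235 to 0.629) in cluster 0 and 0.584 (0.426 to 0.789) in cluster 6. In cluster 0 its direction turned between the sexes, with 0.270 between females (23 and 21 UMIs) and 1.59 between males (13 and 1 UMIs). In cluster 6 both sexes were lower, at 0.441 between females and 0.601 between males. Of all genes, 10.2% were higher and 5.32% lower in cluster 0, and 4.18% and 3.78% in cluster 6. Col27a1 had 69 UMIs in the library labelled MR1 knockout and 2 UMIs in the 5XFAD library, a ratio of 21.5 (5.72 to 181). Of these, 62 came from the female of the library labelled MR1 knockout, 1 from its male and 1 from the female 5XFAD mouse. Col6a2 had 72 and 6 UMIs, a ratio of 7.47 (3.27 to 21.0), with 11.1 CPM in the female and 4.34 CPM in the male of the library labelled MR1 knockout, against 1.06 and 0 CPM in the female and male 5XFAD mouse; in cluster 0 its ratio was 3.39 (1.27 to 12.8). Col13a1 had a ratio of 3.06 (1.58 to 6.48), and Col5a2 one of 1.79 whose interval included 1 (0.994 to 3.39). In these neurons both mice of the library labelled MR1 knockout were above both 5XFAD mice in 5 of 10 members (33.5% of all genes) and below both in 2 (13.3% of all genes). Among the 5 were Col27a1 and Col6a2, each with 0 UMIs in the male 5XFAD mouse. In the male of the library labelled MR1 knockout Col27a1 had 1 UMI and Col6a2 had 9 UMIs, so these 2 rested on low counts.

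In CA2/CA3 pyramidal neurons Col12a1 was higher in each mouse of the library labelled MR1 knockout. Of 11 members measured there, 3 were higher (4.44% of all genes) and 1 lower (1.82% of all genes). Col12a1 had 34.1 CPM in the female and 16.5 CPM in the male of the library labelled MR1 knockout, against 7.33 CPM in the female and 4.01 CPM in the male 5XFAD mouse. Over the class it had 221 and 53 UMIs, a ratio of 4.09 (3.02 to 5.63), and 3.76 (2.76 to 5.21) within cluster 2, which held most of these nuclei in both libraries. Col25a1 was the lower member, with 51.1 CPM in the library labelled MR1 knockout and 79.0 CPM in the 5XFAD library, a ratio of 0.648 (0.573 to 0.731). Its levels were 44.8 and 57.8 CPM in the female and male of the library labelled MR1 knockout, against 84.4 and 68.8 CPM in the female and male 5XFAD mouse, but within cluster 2 the ratio was 0.778 (0.647 to 0.935) and under the limit. Col15a1 had a ratio of 3.35 (1.73 to 7.0) and Col16a1 of 1.64 (1.08 to 2.54), the second 1.36 (0.873 to 2.15) within cluster 2, where 5.66% of all genes were higher and 1.56% lower. Both mice of the library labelled MR1 knockout were above both 5XFAD mice in 3 of the 11 members (29.0% of all genes) and below both in 1 (10.5% of all genes).

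CA1 pyramidal neurons had 7 members with enough UMIs, of which 2 were higher (6.37% of all genes) and 0 lower (1.79% of all genes). Col22a1, known from muscle and tendon junctions, had a ratio of 2.53 (1.42 to 4.65), and Col23a1 one of 1.64 (1.16 to 2.34). Both mice of the library labelled MR1 knockout were above both 5XFAD mice in 4 of the 7 (30.1% of all genes) and below both in 0 (12.1% of all genes). Col23a1 had 31.1 and 8.64 CPM in the female and male of the library labelled MR1 knockout, against 16.5 and 4.12 CPM in the female and male 5XFAD mouse, so the groups overlapped. Col18a1 was under the limit of 50 UMIs in this class, and its 28 UMIs (24.2 CPM) in the female of the library labelled MR1 knockout stood against 3, 1 and 1 UMIs (1.62, 0.330 and 0.588 CPM) in the male of that library and the female and male 5XFAD mouse.

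Inhibitory neurons had 10 members measured, 2 of them higher (6.27% of all genes) and 1 lower (1.87% of all genes). Col4a2 had 60.2 CPM in the library labelled MR1 knockout and 39.8 CPM in the 5XFAD library, a ratio of 1.51 (1.25 to 1.83), which TMM factors put at 1.43 and under the limit. By mouse Col4a2 had 58.5 CPM in the female and 52.7 CPM in the male of the library labelled MR1 knockout, against 39.7 CPM in the female and 32.8 CPM in the male 5XFAD mouse, and in cluster 14 its ratio was 2.10 (1.47 to 3.04). It was under the limit in cluster 11, at 1.25 (0.927 to 1.71), and in cluster 12, at 1.33 (0.951 to 1.90). In cluster 11 the Col4a2 ratio between males was 0.765. Col25a1 differed between the inhibitory clusters. In cluster 14 it had 342 and 402 CPM in the female and male of the library labelled MR1 knockout, against 224 and 175 CPM in the female and male 5XFAD mouse, a ratio of 1.84 (1.61 to 2.11). In cluster 11 it had 1411 and 1933 CPM in the female and male of the library labelled MR1 knockout, against 1736 and 1505 CPM in those of the 5XFAD library, so the mice overlapped. Col19a1 was lower in cluster 12, with 356 and 512 CPM in the female and male of the library labelled MR1 knockout, against 599 and 720 CPM in the female and male 5XFAD mouse, a ratio of 0.611 (0.553 to 0.675). Over the whole class its ratio was 0.880 (0.833 to 0.929), with 0.994 between males. It was 0.976 (0.903 to 1.05) in cluster 11 and 0.863 (0.759 to 0.980) in cluster 14, where in each the direction turned between the sexes. Of all genes, 5.88% were higher and 3.22% lower in cluster 14, and 9.42% and 2.58% in cluster 12. In the class both mice of the library labelled MR1 knockout were above both 5XFAD mice in 3 of the 10 members (25.0% of all genes), and below both in 1, Col19a1 (12.5% of all genes). Col6a5 had a ratio of 2.19 (1.14 to 4.50), and Col14a1, the lower member, 0.662 (0.462 to 0.946). The direction of Col14a1 turned between the sexes, with 0.462 between females and 2.39 between males (18 and 7 UMIs).

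In cortical or subicular excitatory neurons, Col8a1 and Col12a1 differed in opposite directions. Of 9 members measured, 2 were higher (9.06% of all genes) and 2 lower (4.95% of all genes). The class was made up of different shares of 3 clusters: cluster 16 held 192 nuclei of the library labelled MR1 knockout and 418 of the 5XFAD library, cluster 28 held 26 and 189, and cluster 30 held 74 and 68. Col8a1 had a ratio of 3.44 (2.68 to 4.41), with 123 CPM in the female and 101 CPM in the male of the library labelled MR1 knockout, against 50.2 CPM in the female and 6.73 CPM in the male 5XFAD mouse, so the groups did not overlap. Col12a1 had a ratio of 0.226 (0.118 to 0.396), with 1.23 CPM (1 UMI) in the female and 18.9 CPM (3 UMIs) in the male of the library labelled MR1 knockout, against 12.6 CPM in the female and 99.4 CPM in the male 5XFAD mouse. The male 5XFAD mouse stood apart within cluster 16. There Col8a1 had 145 CPM in the female and 213 CPM in the male of the library labelled MR1 knockout, against 122 CPM in the female and 6.99 CPM in the male 5XFAD mouse. Col12a1 had 1.48 CPM and 13.3 CPM (1 UMI each) in the female and male of the library labelled MR1 knockout, against 5.66 CPM in the female and 102 CPM in the male 5XFAD mouse. The other called members were Col23a1, with a ratio of 1.67 (1.36 to 2.06), and Col5a1, a chain that joins type I fibrils, with one of 0.420 (0.194 to 0.813); TMM factors put Col23a1 just under the limit. Both mice of the library labelled MR1 knockout were above both 5XFAD mice in 2 of the 9 (22.9% of all genes) and below both in 0 (11.3% of all genes).

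**Figure D4:**
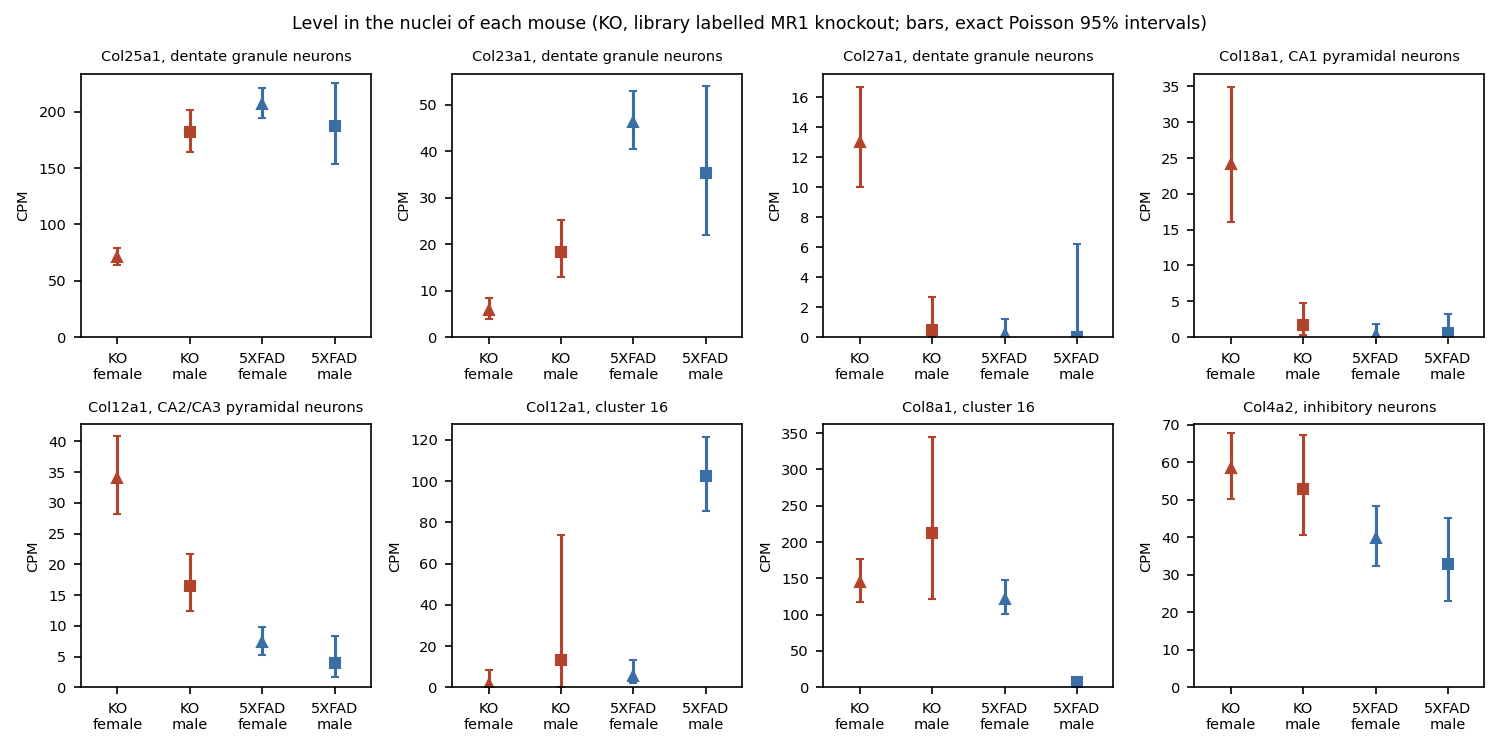
Levels in CPM (vertical axis, linear, from 0) of 7 collagen chain genes in the nuclei of each of the 4 mice, with the mice of the library labelled MR1 knockout in red on the left and the 5XFAD mice in blue on the right (triangles female, squares male; bars are exact Poisson 95% intervals). Col25a1, Col27a1 and Col18a1 set apart the female of the library labelled MR1 knockout, Col8a1 and Col12a1 in cluster 16 the male 5XFAD mouse, and Col23a1 in dentate granule neurons, Col12a1 in CA2/CA3 pyramidal neurons and Col4a2 do not overlap between the groups.

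Glial classes gave few collagen ratios. Col25a1 was the only member with at least 50 UMIs in astrocytes, with 35.0 CPM (16 UMIs) in the library labelled MR1 knockout and 108 CPM (63 UMIs) in the 5XFAD library, a ratio of 0.324 (0.174 to 0.567). By mouse it had 44.4 and 14.6 CPM in the female and male of the library labelled MR1 knockout, against 96.6 and 44.4 CPM in the female and male 5XFAD mouse, so the groups met at the same level. The neuronal marker lists differed in direction and size in these nuclei. All 14 inhibitory markers were detected in each library, with sums of 1327 CPM in the library labelled MR1 knockout and 2085 CPM in the 5XFAD library. Striatal markers (8 and 10 of 10) had 368 and 758 CPM, and cortical or subicular markers 1551 and 1903 CPM. CA1 markers had 646 and 744 CPM, CA2/CA3 markers 335 and 411 CPM, and Cajal-Retzius markers 129 and 151 CPM. Dentate granule markers went the other way, at 1380 and 1320 CPM. The 13 astrocyte markers summed to 14420 CPM in the library labelled MR1 knockout and 11237 CPM in the 5XFAD library, and the part of the neuronal RNA in the ratio was not tested. In all genes measured in astrocytes, 8.28% were higher and 9.32% lower. Microglia had 2 such members and oligodendrocyte precursors 1, with 0 past the limit in either direction (8.92% and 9.18% of all genes were higher, and 5.58% and 4.05% lower), and oligodendrocytes had 0 (7.78% of all genes were higher and 3.59% lower).

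The genes that make, bind and break down collagen were read from 6 lists over all kept nuclei. Of 20 measured genes for hydroxylation, folding and secretion, 2 were higher (P4ha3 and Crtap) and 0 lower, where 8.82% of all genes were higher and 3.18% lower, the shares against which each of the 6 counts stands. P4ha3 had a ratio of 3.16 between females and 0.444 between males. Ppib, a folding enzyme, had 161 CPM in the library labelled MR1 knockout and 137 CPM in the 5XFAD library, a ratio of 1.18. Of 12 genes for procollagen processing and crosslinking, 3 were higher (Bmp1, Tll2 and Loxl1) and 1 lower, Adamts3, a procollagen protease, with 59.1 CPM in the library labelled MR1 knockout and 90.7 CPM in the 5XFAD library and a ratio of 0.652 (0.624 to 0.681). Of 13 receptor genes, 0 were higher and 2 lower: Ddr2, a receptor for fibrillar collagen, with a ratio of 0.596 (0.481 to 0.737), and Adgrg6, a receptor that binds type IV collagen, with a ratio of 0.285 (0.221 to 0.363). Of 19 basement membrane partners, 3 were higher (Lama5, Nid1 and Hspg2) and 0 lower, and Agrn, the proteoglycan agrin, had a ratio of 1.34. Of 14 collagen binding proteoglycans and glycoproteins, 3 were higher (Bgn, Fbln2 and Emilin1) and 1 lower (Postn). Of 13 genes for degradation and its inhibitors, 0 passed the limit in either direction, and Mmp16, a membrane metalloproteinase, had 399 CPM in the library labelled MR1 knockout and 416 CPM in the 5XFAD library. The lists' median log2 ratios ran from 0.14 to 0.26, against 0.13 over all genes.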

How the data were processed

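RNA of hippocampal nuclei was captured by 3' droplet sequencing. The deposited files hold raw counts, whole UMI counts per gene and barcode, made by the authors with Cell Ranger 7.0.0 and mm10, per the submitters' processing notes; whether introns were counted is not given in the sources used here. Nuclei had at least 500 genes and under 5% mitochondrial UMIs. Scrublet (scanpy 1.11.5) scores marked doublets at 0.8% per 1000 barcodes (4668 and 3111 nuclei). Clusters (41; 2500 variable genes without collagen and sex-linked genes, 40 components, 20 neighbours, leidenalg 0.10.2, resolution 1.5) were named from marker lists where at least 3 markers were in the top 50 genes. Mixed clusters (4) were left out: those with Xist and Y-linked UMIs together in at least 15% of nuclei, or with markers of another class. Unnamed clusters held 32.4% of kept nuclei in the library labelled MR1 knockout and 33.1% in the 5XFAD library.

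For each class of a library, UMIs were added up and expressed as CPM. A call was a ratio of at least 1.5 or its inverse with at least 50 UMIs, in 9 classes with at least 200 nuclei per library. Intervals were exact Poisson (CPM) and conditional binomial (ratios), and a count of 0 allows 3 UMIs. Xist (2 UMIs or more) assigned a nucleus to the female mouse and Y-linked RNA (1 UMI or more) to the male; 5120 and 3293 nuclei had no assignment. The calculation was tested on simulated data, and edgeR 4.0.16 gave TMM factors only. The members, lists and rules were chosen with earlier results of these data known. Named were the 12 members with the most UMIs, up to 3 of the highest per vascular class, and up to 12 called members with at least 100 UMIs and 1 direction in both sexes, ranked by the interval bound nearest 1.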

Additional observations from a re-analysis of the deposited data

Results flagged for a closer look

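Opposite directions past 1.5-fold set apart a few members, and none of these differences was tested. Col12a1 was higher in CA2/CA3 pyramidal neurons (ratio 4.09) and lower in cortical or subicular excitatory neurons (0.226). Col23a1 was higher in CA1 pyramidal neurons (1.64) and in cortical or subicular excitatory neurons (1.67), but lower in dentate granule neurons (0.262).

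Over all kept nuclei the sexes went opposite ways for 4 members. The ratio of Col16a1 was 2.51 between females and 0.584 between males. For Col24a1 the ratios were 1.84 between females and 0.353 between males, and for Col6a3 2.27 and 0.0420. Col6a4 had 0.535 between females and 1.76 between males. Each sex is 1 mouse per library. In the 5XFAD library, cluster 15 held 74.4% of the Col6a3 UMIs, and 426 of its 605 nuclei were assigned to the male and 1 to the female.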

How the results depend on the processing

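No paired analysis was possible because each group was 1 library. Over all kept nuclei 13 members were higher (8.82% of all genes) and 2 lower (3.18% of all genes). The count of higher members was 7 at a limit of 2-fold, 7 between males and 7 without the clusters held by 1 library (6.97% of all genes). The count of lower members was 1 with at least 100 UMIs, 1 under 1% mitochondrial UMIs, 1 between females and 5 between males. Summed over the compared classes, 13 were higher and 7 lower, beside the shares of all genes given above for each class. For the other settings the shares of all genes were not counted. Those counts show only how the calls move, and are not read as a result about collagen genes. The higher sum was 8 at 2-fold, 5 with at least 100 UMIs, 87 with no minimum beyond 1 UMI in each library, 6 under 1% mitochondrial UMIs and 4 between males, and the lower sum was 4 at 2-fold and 60 with no minimum. Between males the ratio turned to 0.584 for Col16a1, 0.945 for Col12a1, 0.877 for Col6a2, 0.696 for Col27a1, 0.546 for Col28a1 and 0.968 for Col5a3, and to 0.893 for Col10a1 on 6 and 11 UMIs. Between females it turned to 2.27 for Col6a3 and 0.879 for Col4a3. Without the clusters held by 1 library it turned to 0.989 for Col28a1 and 1.23 for Col6a3. The cause was not tested. With TMM factors 37 of the ratios over all nuclei stayed within their counting interval and 6 did not. Most members have few UMIs in glial and vascular classes, which limits what can be seen there.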
